A study of Caenorhabditis elegans with 4 samples.

Results

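Chromosome III carried 475 of the 2515 CEH-39 binding regions in the authors' combined list, which lists 1 set of regions for the whole experiment. Its members were taken by position alone, as every combined region placed on chromosome III, and no binding value was used to choose them. The regions come from ChIP-seq, in which DNA crosslinked to a protein is recovered with an antibody and sequenced. The embryos were Caenorhabditis elegans of strain OP169, with both males and hermaphrodites in the population, kept at 20 degrees Celsius. All of them carried the unc119(ed3) allele and the transgene wgIs169, introduced by bombardment, in which ceh-39 is joined to TY1, EGFP and FLAG tags and which also carries unc119. The labels state that the fusion protein follows the normal pattern of ceh-39 in place and time. The 2 ChIP libraries (anti-GFP) and 2 input libraries (total DNA from the same lysates) share this strain, genotype, stage and temperature, so no condition other than the precipitation differs between groups. The lists used are those of the 2 ChIP replicates and the combined one. No region list of the input libraries was used. The replicates are not stated to come from separate cultures, so differences between them may be technical.

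CEH-39 is a homeodomain transcription factor of the ONECUT class, whose members bind DNA through a cut domain together with a homeodomain. It is encoded on the X chromosome and counts among the X signal elements, by which the early embryo senses how many X chromosomes it has. Worm chromosomes are holocentric, and each autosome has a gene-dense, rarely recombining central part between repeat-rich arms that recombine more often. Chromosome III is an autosome. The precipitated protein came from the transgene, whose place in the genome is not given in the labels. Region sequences and the genes beside the regions were not analysed here, because no genome or annotation of the WormBase WS220 build, on which the positions are given, was used.

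Regions were denser on chromosome III than on the other chromosomes together. In the combined list III had 34.5 regions per Mb (95% exact Poisson interval 31.4 to 37.7) and the other 5 chromosomes had 23.6 per Mb (2040 regions, 22.6 to 24.6), a ratio of 1.46 (95% exact interval 1.32 to 1.62). III thus held 18.9% of the combined regions (95% Wilson interval 17.4 to 20.5%) on 13.7% of the nuclear length. These intervals cover counting error only, and they take regions as independent. Chromosome length was taken as the end of the last region in any of the lists, which is 13779905 bp for III.

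Set against one chromosome at a time, III did not differ detectably from I and was above each of the rest. The ratio of regions per Mb was 0.979 (0.863 to 1.11) for III over I, an interval that spans equality. It was 1.32 (1.15 to 1.51) over II, 1.57 (1.37 to 1.81) over IV, 2.39 (2.06 to 2.77) over V and 1.44 (1.26 to 1.64) over X. Joined into non-overlapping loci, the regions covered 1.48% of III, 1.53% of I and 1.02% of all the other chromosomes together.

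Each replicate list also placed more regions per Mb on III than on the rest, by a smaller factor. Replicate 1 had 5332 regions on III, or 387 per Mb, against 285 per Mb on the other chromosomes, a ratio of 1.36 (1.32 to 1.40). Replicate 2 had 3065 regions on III, or 222 per Mb, against 185 per Mb on the other chromosomes, a ratio of 1.20 (1.16 to 1.25). When each replicate was shortened to its best 2515 ranks, a comparison chosen after the whole lists had been seen, the ratios were 1.50 (1.35 to 1.66) in replicate 1 and 1.41 (1.27 to 1.56) in replicate 2. The excess on III was therefore nearer to that of the combined list among the best ranks than in the whole replicate lists. Ranks follow the authors' score, whose unit is not named, and equal scores were put in the order of the numbers that the regions carry as names.

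**Figure D1:**
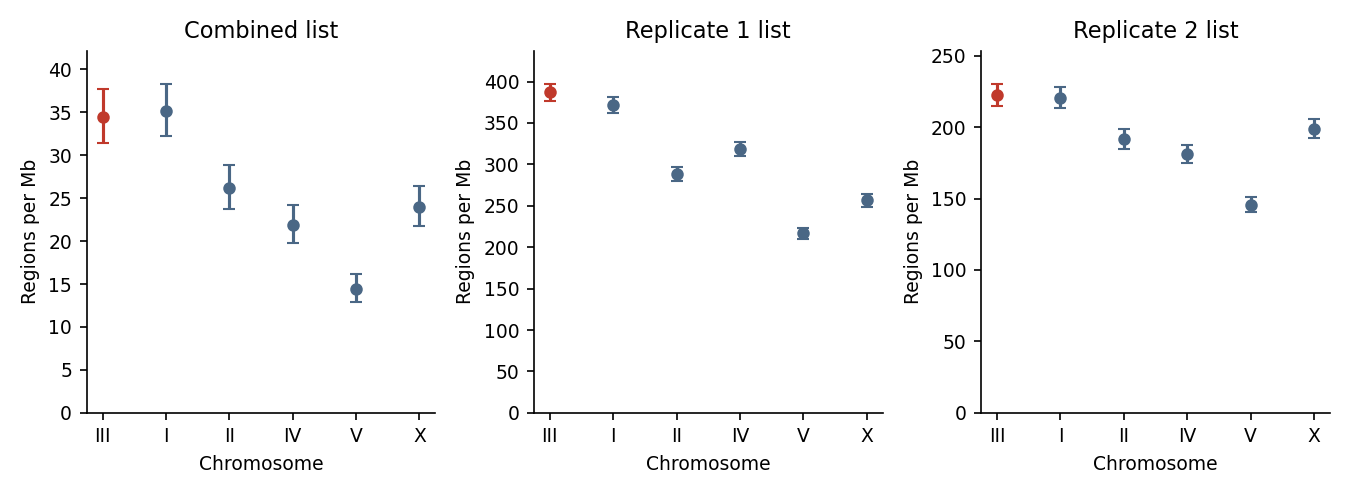
Regions per Mb (vertical axes, each from 0) on chromosome III (red) and on the other chromosomes (blue) in the combined, replicate 1 and replicate 2 lists. Points are counts divided by length and bars are 95% exact Poisson intervals. In the combined list III stands at 34.5 per Mb, beside I at 35.2 and above V at 14.4.

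The share of III ran from 25% of the best 100 combined ranks to 18.9% of the whole combined list, with overlapping intervals. Of the 100 best combined ranks, 25 were on III (25%, 95% Wilson interval 17.5 to 34.3%), and of the best 500 there were 103 (20.6%, 17.3 to 24.4%). Of the best 1000 ranks, 196 were on III (19.6%, 17.3 to 22.2%). These intervals all overlap that of the whole list, which contains the same regions. The best 500 ranks lie within the regions tied at the highest score, so the numbers in their names set their order. Of the best 100 ranks of each replicate, 25 were on III in replicate 1 and 16 in replicate 2 (16%, 10.1 to 24.4%). Among the 991 combined regions tied at the highest score, 194 lay on III, so that 40.8% of III regions (36.5 to 45.3%) and 39.1% of those elsewhere (37.0 to 41.2%) were tied there, against 39.4% of the whole list.

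The profile along the chromosome was uneven, and the replicates differed in where regions were dense. In 1-Mb bins from the left end (position 1), the combined list held 33, 23, 27, 29, 53, 45, 30, 38, 47, 31, 34, 26 and 34 regions, and 25 in the last, shorter bin. The 2 fullest bins were therefore from 4 to 5 Mb and from 8 to 9 Mb, on either side of a lower part around 6 to 7 Mb. Replicate 1 held 205 to 506 regions per full bin (median 384), with its lowest count at 6 to 7 Mb and its highest at 11 to 12 Mb. Replicate 2 held 183 to 276 (median 204), with its highest count at 4 to 5 Mb and its lowest at 12 to 13 Mb. The lists thus had their extremes in different bins, except that the combined list and replicate 2 shared the fullest one.

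The central 50% of III held 270 combined regions, which is 56.8% (52.4 to 61.2%), against 54.7% (52.5 to 56.9%) on the other chromosomes and 55.1% in the whole list. The interval for III includes the value for the others, and the share on III lay inside their range of 45.6% on X to 60.9% on V. Per Mb, III carried 26.7 regions in its left 25%, 39.2 in the centre and 32.8 in its right 25%. The whole replicate lists fell on either side of an even spread. In replicate 1, 40.6% of the regions on III were central (39.3 to 41.9%), against 41.9% on the other chromosomes and 41.6% in all. For replicate 2 the central share was 53.8% on III (52.0 to 55.6%), against 53.5% on the other chromosomes and 53.6% in all. This difference did not persist at the best ranks, where 56.0% of the III regions among the best 2515 ranks of replicate 1 and 60.1% of those of replicate 2 were central.

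**Figure D2:**
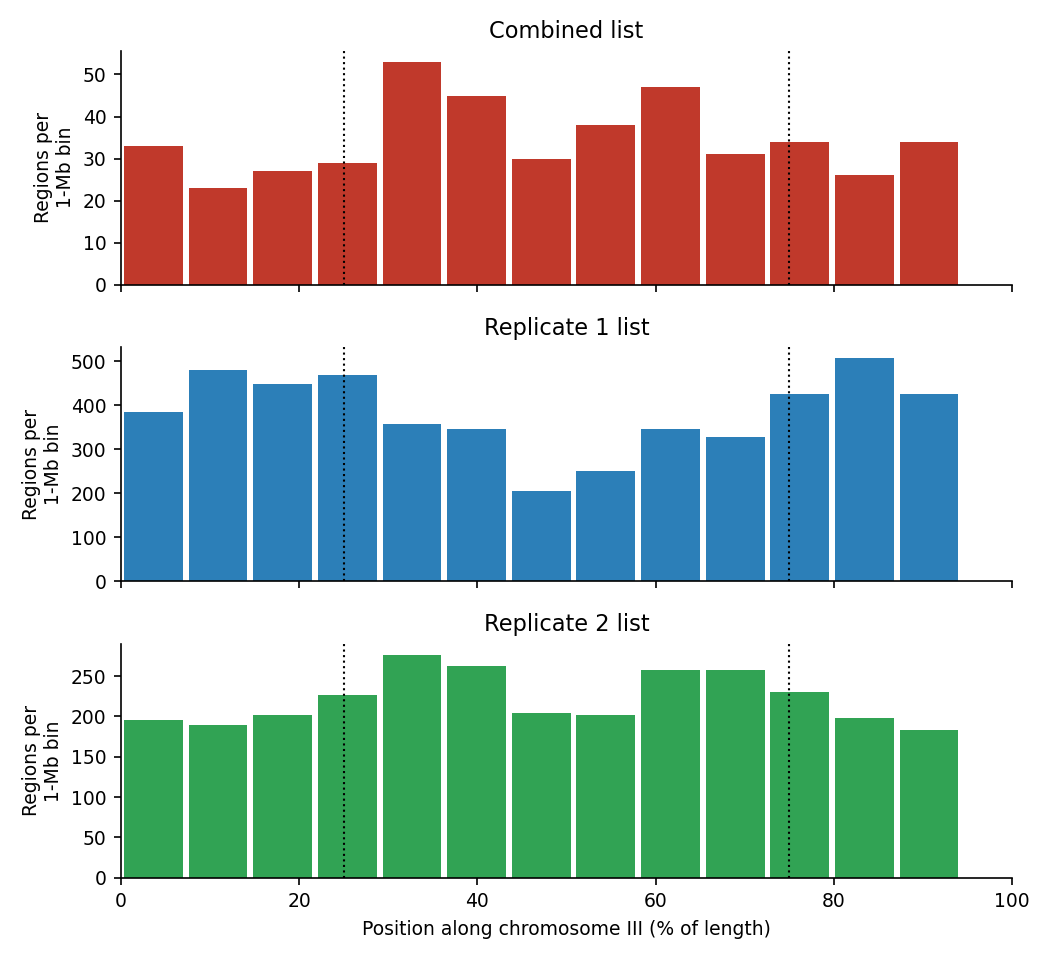
Regions per full 1-Mb bin (vertical axes) against position along chromosome III as a percentage of its length (horizontal axis), for the combined, replicate 1 and replicate 2 lists. Dotted lines bound the central 50%. The combined list peaks at 53 regions, replicate 1 dips to 205 near the middle, and replicate 2 ranges from 183 to 276.

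Dense stretches were examined in 50-kb windows counted from position 1, and a window with 5 or more combined regions was called dense. III had 19 dense windows among 276 (6.88%, 4.45 to 10.5%), against 41 among 1732 on the other chromosomes (2.37%, 1.75 to 3.20%) and 2.99% of all windows. Those 19 windows held 110 regions, which is 23.2% of the III regions (19.6 to 27.2%), against 11.1% on the other chromosomes (9.84 to 12.6%) and 13.4% of all. Chromosome I came close to III, with 23 dense windows and 24.3% of its regions in them, while II, IV, V and X had 7, 3, 1 and 7. A higher mean count gives more windows over a fixed number, and the mean was 1.72 regions per window on III, 1.76 on I and 1.18 on the other chromosomes together. The variance of the counts was 1.50 times the mean on III, 1.54 times on I and 1.25 to 1.35 times on II, IV, V and X.

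Of the 19 dense windows, 15 lay in the central 50% of III, 2 to its left and 2 to its right. That central part held 56.8% of all combined regions of III. The counts were 9, 8, 7 and 7 in the 4 fullest windows, 6 in another 4 and 5 in 11. The other windows of III comprised 187 with 1 to 4 regions and 70 with none, of which 89 and 34 lay in the central 50%. Empty windows were 25.4% of III windows, against 38.5% on the other chromosomes and 36.7% in all. On I alone they were 24.5%. Adjacent dense windows occurred at 4250001 to 4350000, with 13 regions, and at 5650001 to 5750000, with 10.

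The fullest window of the combined list on any chromosome was on III, at 7150001 to 7200000, in the middle of the chromosome. Its 9 regions spanned 45430 bp, with gaps of 0 to 17245 bp, and 8 of them overlapped regions of both replicates. The best ranked was a region of 126 bp at 7162371 to 7162496, whose rank was 131 in the combined list, 106 in replicate 1 and 439 in replicate 2. Next came a region of usual width at 7189610 to 7190073 (combined rank 307, replicate ranks 266 and 685), and then a region of 116 bp at 7179742 to 7179857 (combined rank 362, replicate ranks 375 and 957). Of the 9 regions, 6 were tied at the highest score, so the window mixed well-ranked regions with others as low as rank 2424. One, at 7198714 to 7199177, overlapped replicate 1 alone.

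The second fullest window, at 4250001 to 4300000, held 8 regions, of which 7 overlapped both replicates. Its best combined rank was 240, at 4282207 to 4282430, where the replicate 1 rank was 139 and the replicate 2 rank 8437. Its replicate 2 order was different, since the region at 4272713 to 4273176 had replicate 2 rank 182, replicate 1 rank 1818 and combined rank 1564. The window therefore had no single region that led in both replicates.

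The 2 windows with 7 regions were unlike each other in rank. At 12600001 to 12650000, towards the right end, the best combined rank was 41 and 4 regions were tied at the highest score. At 8100001 to 8150000 the best combined rank was 506 and 2 regions were tied there. In each of these windows 6 of the 7 regions overlapped both replicates. The 4 windows with 6 regions began at 4900001, 5900001, 8900001 and 10700001, with best combined ranks of 710, 60, 343 and 212. The last of them ends close to the best-ranked region of the chromosome, at 10758955.

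The replicate lists were also fuller in the dense windows than in the empty ones. Replicate 1 had 24.4 ± 4.25 regions per dense window (SD, n = 19 windows), 20.5 ± 7.88 in windows with 1 to 4 combined regions (n = 187) and 14.7 ± 7.51 in empty windows (n = 70). Replicate 2 had 18.3 ± 2.83 in the dense, 11.6 ± 3.57 in the intermediate and 7.81 ± 3.15 in the empty windows. The windows were sorted by the combined list, which may rest on the same libraries, so these means are a description only. Over all 276 windows, Spearman's rho with the combined count was 0.34 for replicate 1 and 0.63 for replicate 2. Between the best 2515 ranks of the replicates it was 0.67, and all these counts share the underlying sequence of the windows.

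Dense windows called separately in the best 2515 ranks of each replicate overlapped in part. Replicate 1 gave 18 on III, of which 15 were dense in the combined list (83.3% of the replicate 1 windows and 78.9% of the combined ones). Replicate 2 gave 14, of which 8 were dense in the combined list (57.1% of the replicate 2 windows and 42.1% of the combined ones). There were 6 windows dense in all of these lists. Most dense windows of the combined list fell below the limit of 5 regions in replicate 2 at that length, but held 2 to 4 of its regions each. The same sharing was not counted on the other chromosomes.

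**Figure D3:**
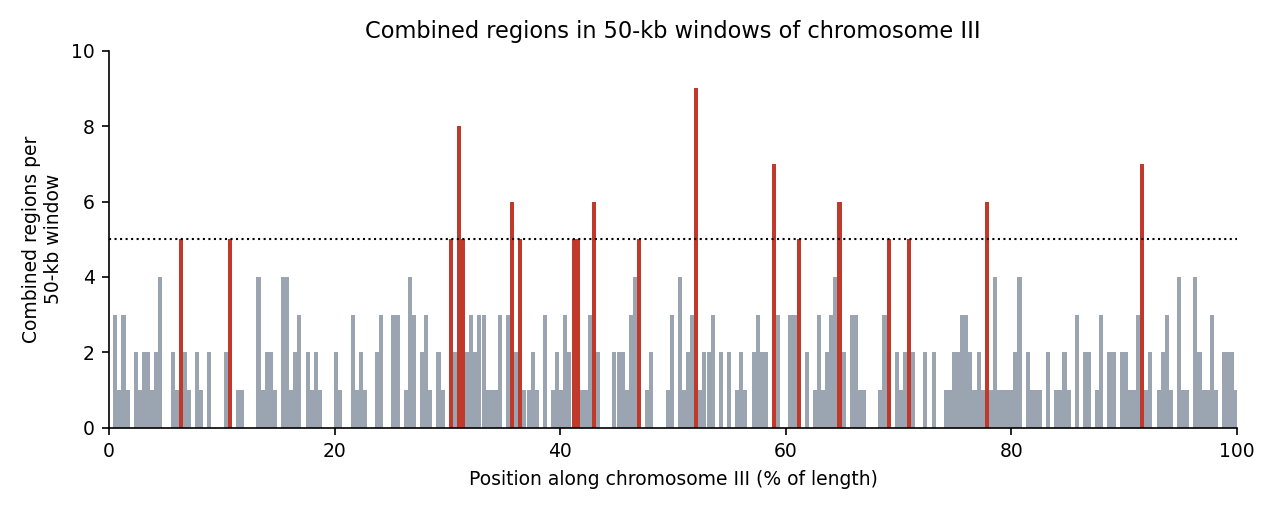
Combined regions per 50-kb window (vertical axis) against position along chromosome III as a percentage of its length (horizontal axis). Red bars are the 19 windows at or above the dotted line at 5 regions, and the fullest, with 9, stands near the middle.

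Neighbouring combined regions lay closer together on III than on most chromosomes. The median gap, counted in bases between the end of one region and the start of the next, was 15430 bp on III (95% interval from order statistics 13430 to 18334; 474 gaps), against 23263 bp on the other chromosomes (21430 to 25525; 2035 gaps). The medians elsewhere ran from 16610 bp on I to 42000 bp on V, so III had the shortest, although its interval overlapped those of I (13649 to 19431 bp) and II (15114 to 24108 bp). The difference lay in the longer gaps. The upper quartile was 40499 bp on III and 56926 bp on the other chromosomes, whereas the lower quartile was 5659 bp on III and 6232 bp on the other chromosomes. Gaps over 100 kb made up 3.59% of those on III (17 of 474, 2.25 to 5.67%), against 10.9% on the other chromosomes (9.58 to 12.3%) and 9.49% of all. Chromosome I resembled III here, with 4.35% (23 of 529, 2.91 to 6.44%) and an upper quartile of 36751 bp.

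At a fixed limit of 1 kb, the share of very close neighbours did not differ detectably between III and the other chromosomes. Gaps under 1 kb made up 6.75% on III (32 of 474, 4.82 to 9.38%), against 7.22% on the other chromosomes (6.18 to 8.43%) and 7.13% of all. Against a limit of 10% of the mean gap of each chromosome, a comparison chosen after the data were seen, III had the lowest share, with 15.8% (75 of 474, 12.8 to 19.4%), against 18.3 to 18.9% on each other chromosome, 18.7% on those together (17.0 to 20.4%) and 18.1% of all. The intervals of III and of the other chromosomes overlapped. At the shortest end, 10 gaps on III had length 0 (2.11%, 1.15 to 3.84%), against 3.05% on the other chromosomes (2.38 to 3.89%) and 2.87% of all. Each such case joined 2 regions into 1 locus of 665 to 717 bp, and no more than 2 regions were joined on any chromosome. One of the 10 joined loci, at 7153748 to 7154412, lay in the fullest window, and another, at 8125196 to 8125867, lay in a window with 7 regions.

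**Figure D4:**
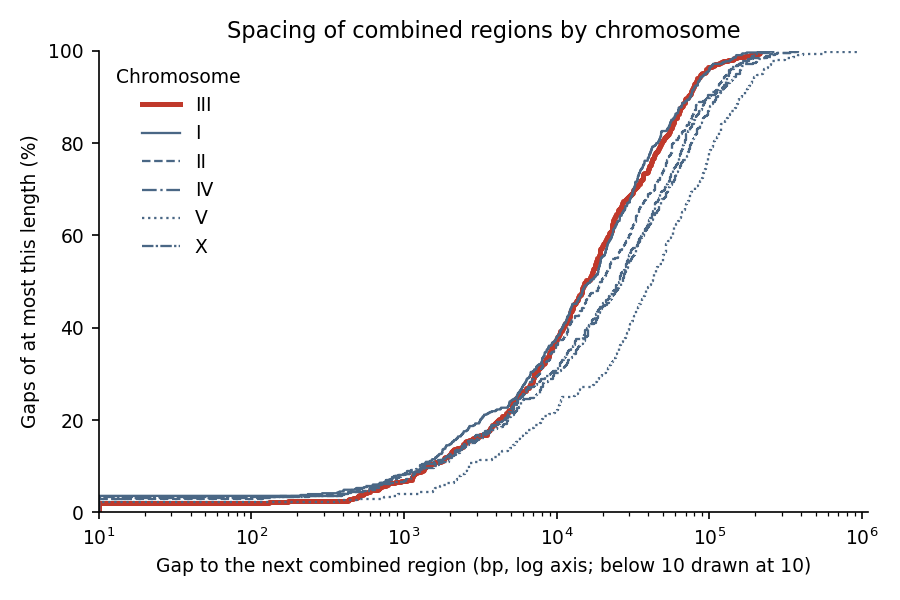
Share of gaps (vertical axis, %) no longer than a given length (horizontal axis, bp, log axis), for combined regions on chromosome III (thick red line) and on each other chromosome. The curve for III lies with that for I, and both reach 50% at shorter gaps (15430 and 16610 bp) than V (42000 bp).

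The 5 widest gaps of III were 186 to 216 kb long and still held replicate regions. The widest, at 6615463 to 6831688 near the middle, held 24 replicate 1 regions (111 per Mb, best rank 2535) and 28 replicate 2 regions (129 per Mb, best rank 856). The next, at 9228488 to 9443424, held 45 and 38 regions of replicates 1 and 2. Both replicates were thus sparser in these gaps than on III as a whole. At 1619184 to 1805480, in the left part, replicate 1 had 381 regions per Mb, close to its value of 387 for III, while replicate 2 had 145 per Mb. The remaining gaps were at 1208289 to 1418643 and at 5959413 to 6158593. In each of the 5, 10 to 16 replicate 1 regions overlapped a replicate 2 region. This was 15.5 to 41.7% of the replicate 1 regions in the gap. The share was 36.0% on III as a whole and 35.4% of all replicate 1 regions. Both of those shares include replicate 1 regions that overlap combined regions, and a gap holds no combined region by definition. They are therefore not a like measure for the gaps, and no conclusion is drawn from them. From position 1, the first combined region began at 86236, and 40 replicate 1 and 16 replicate 2 regions lay before it.

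The gap at 5959413 to 6158593 followed one of the best-ranked regions of the chromosome. The region at 5958142 to 5958443 had replicate 1 rank 1, replicate 2 rank 161 and combined rank 8. It was followed by a region at 5958949 to 5959412 (combined rank 469), after which no combined region occurred for 199181 bp. To the left of this pair lay the dense window at 5900001 to 5950000, with 6 regions.

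The 20 best-ranked combined regions on III had combined ranks 5 to 60, and all 20 overlapped regions of both replicates. Because all 20 share the highest score, the numbers in their names set the order. First came III:10758955-10759258, at ranks 9 and 17 in replicates 1 and 2, and then the region at 5958142 described above. The third, III:3867422-3867704, ranked 7 in replicate 1 and 71 in replicate 2. The next, III:12904981-12905212 (replicate ranks 41 and 12) and III:13070387-13070691 (35 and 27), lay in the right part, as did III:13643501-13643770 (26 and 77) close to the right end. These regions were near the top of both replicate lists.

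The next regions were central. They were III:9765364-9765665 (replicate ranks 16 and 126), III:6971925-6972164 (43 and 34), III:8020954-8021154 (52 and 33), III:8956228-8956493 (39 and 49) and III:7854513-7854752 (57 and 25). In all, 13 of the 20 lay in the central 50% of III, 7 in its right 25% and none in its left 25%. Of all 475 combined regions of III, 270 were central (56.8%), 113 in the right 25% and 92 in the left 25%. The best 100 ranks of replicate 1 took in all 20 regions, and those of replicate 2 took in 11.

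Replicate 2 placed some of these regions far lower. The largest difference was at III:9456112-9456387, with rank 19 in replicate 1 and 3867 in replicate 2. It was followed by III:10096603-10096729, with ranks 18 and 803. The other 18 had replicate 2 ranks of 12 to 232, so the median over the 20 was 79.5 in replicate 2 and 37.5 in replicate 1. Ranks in lists of different length are not a measure of binding strength.

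Among the 20, 3 lay within 14417 bp near the right end. They were III:12598393-12598696 (replicate ranks 38 and 82), III:12608586-12608869 (28 and 143) and III:12612346-12612809 (48 and 223), with 2 further combined regions between the first and the last. The last 2 belong to the dense window at 12600001 to 12650000. Between no other neighbours among the 20 was the gap under 20 kb.

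Narrow regions were concentrated in the best ranks, on III as on the other chromosomes. The usual width in the combined list was 464 bp, and 52 III regions were narrower (10.9%, 8.45 to 14.1%), against 9.17% on the other chromosomes (7.99 to 10.5%) and 9.50% of all. Of the 52, 51 were tied at the highest score. Narrow regions made up 47.6% of the III regions in the best 503 combined ranks, 2.13% in the next 503 and at most 1.05% after that. On the other chromosomes these shares were 44.3%, 1.96% and at most 0.490%. Among the 20 named regions 18 were narrow, with a median width of 273 bp over the 20. The share among regions tied at the highest score was 26.3% on III (20.6 to 32.9%) and 23.2% on the other chromosomes (20.4 to 26.3%).

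Overlap with the replicate lists, counted from 1 bp, did not differ detectably between III and the other chromosomes. Of the 475 regions, 419 overlapped both replicates (88.2%, 85.0 to 90.8%), against 87.9% on the other chromosomes (86.5 to 89.3%) and 88.0% of all. The other chromosomes ranged from 86.3% on II to 89.6% on I. Another 53 regions of III overlapped replicate 1 alone (11.2%, 8.63 to 14.3%), against 11.5% on the other chromosomes and 11.4% of all. Only replicate 2 was overlapped by 3 regions (0.632%), against 0.539% on the other chromosomes and 0.557% of all, whereas 0 overlapped neither list, where the limit of 3 regions that a count of 0 allows is a share of up to 0.632%, against 0.0490% on the other chromosomes and 0.0398% of all. The sources used here do not say whether the combined list was made from these replicate lists, and a list made from them would overlap them in part for that reason.

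The 3 regions found in replicate 2 alone all lay in the centre of III. The best ranked, III:6431643-6432106, was tied at the highest score with combined rank 605 and replicate 2 rank 145. The others were III:7978992-7979455 (combined rank 1899, replicate 2 rank 844) and III:6198554-6199017 (combined rank 1670, replicate 2 rank 9471). The regions found in replicate 1 alone had combined ranks from 518, and 7 of the 53 were tied at the highest score. The best of them was III:2836927-2837390, with rank 366 in replicate 1.

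Regions found in replicate 1 alone took a larger share of the outer parts of III, though the intervals overlapped. They were 15.2% of the combined regions in the left 25% (14 of 92, 9.29 to 23.9%) and 15.0% in the right 25% (17 of 113, 9.61 to 22.8%), and 8.15% in the central 50% (22 of 270, 5.44 to 12.0%). On the other chromosomes together the shares were 11.4% on the left, 14.8% on the right and 10.04% in the centre. Replicate 1 regions were also denser in the outer parts of III, with 449 per Mb on the left and 470 on the right against 314 in the centre, and the part of this density in the shares was not tested.

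On III, support was highest at the best combined ranks. All 103 III regions in the best 503 ranks overlapped both replicates (95% Wilson interval from 96.4%), against 98.3% of those elsewhere. At ranks 504 to 1006 the share was 90.4% (82.8 to 94.9%) on III and 93.2% elsewhere, and at ranks 1007 to 1509 it was 89.8% on III and 86.0% elsewhere. At ranks 1510 to 2012 it was 77.9% (68.6 to 85.1%) on III and 85.8% (82.1 to 88.8%) elsewhere, and at the lowest ranks 82.1% (73.2 to 88.5%) on III and 76.7% (72.4 to 80.6%) elsewhere. In each rank class the intervals of III and of the other chromosomes overlapped.

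Within the 419 regions found in both replicates, combined rank followed the replicate 1 rank more closely than the replicate 2 rank. Spearman's rho with the combined rank was 0.89 for replicate 1 and 0.49 for replicate 2 on III, and 0.86 and 0.45 on the other chromosomes. Among regions tied at the highest score, which are ordered by the numbers in their names, it was 0.91 and 0.51 on III and 0.87 and 0.50 elsewhere. Below the highest score it was 0.57 and 0.25 on III and 0.56 and 0.12 elsewhere. Between the replicate ranks themselves rho was 0.29 on III and 0.26 on the other chromosomes. Among regions below the highest score this rho between replicates was -0.12 on III (233 regions) and -0.25 on the other chromosomes. Among those tied at the highest score it was 0.24 on III (186 regions) and 0.20 on the other chromosomes. Splitting by the combined score, whose order went with both replicate ranks, can itself lower rho within a part, so no conclusion is drawn from the negative values. Regions tied at the highest score had a median rank of 494.5 in replicate 1 and 837 in replicate 2, and those below it of 1922 and 2857. The centres of the combined regions lay a median of 7 bp from that of the best-ranked overlapping region in replicate 1. For replicate 2 the median was 38 bp. On the other chromosomes these medians were 10.5 and 45 bp. These are descriptions across regions, which are not independent replicates.

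**Figure D5:**
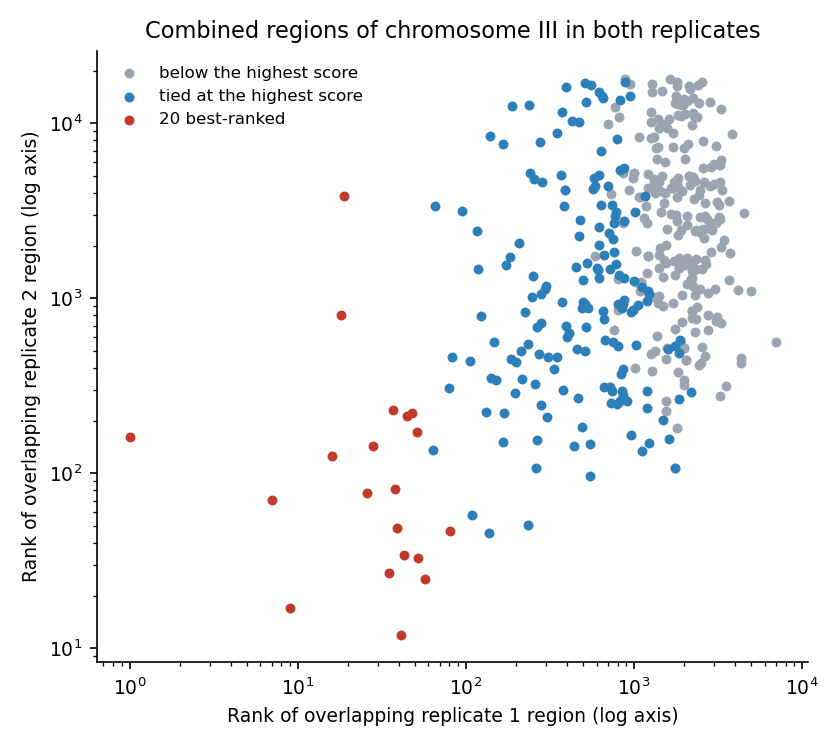
Rank of the overlapping replicate 2 region (vertical axis, log) against that of the replicate 1 region (horizontal axis, log) for the 419 combined regions of chromosome III found in both replicates. The 20 best-ranked regions (red) lie within rank 81 of replicate 1 but reach rank 3867 in replicate 2, and regions tied at the highest score are blue.

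Seen from the replicate lists, replicate 2 regions overlapped the other replicate more often on III than on the other chromosomes together, while for replicate 1 no difference was detectable. Of the replicate 2 regions on III, 1733 of 3065 overlapped a replicate 1 region (56.5%, 54.8 to 58.3%), against 49.5% on the other chromosomes (48.7 to 50.3%) and 50.6% of all. The shares elsewhere ran from 41.5% on V to 57.0% on I. Replicate 1 regions covered 16.2% of the length of III, against 12.1% of the other chromosomes, and the part of this larger covered length in the overlap was not tested. Of the replicate 1 regions on III, 1918 of 5332 overlapped a replicate 2 region (36.0%, 34.7 to 37.3%), against 35.3% on the other chromosomes and 35.4% of all.

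At the best ranks the replicate 2 regions of III were shared about as often as those elsewhere. In the best 500 ranks of replicate 2, 97.0% of the 101 III regions overlapped replicate 1 (91.6 to 99.0%), against 96.2% on the other chromosomes (93.9 to 97.7%). At ranks 501 to 2500 the shares were 76.8% (72.2 to 80.9%) on III and 74.4% (72.2 to 76.4%) elsewhere. At ranks 2501 to 5000 they were 61.9% (57.3 to 66.2%) on III and 55.6% (53.4 to 57.7%) elsewhere. At ranks 10001 to 19048 they were 48.2% (45.6 to 50.9%) on III and 40.9% (39.8 to 42.0%) elsewhere. Down to rank 5000 the intervals of III and of the others overlapped, narrowly at ranks 2501 to 5000, and at lower ranks they did not.

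Most shared replicate regions lay outside the combined list, on III as on the other chromosomes. Of the 1918 replicate 1 regions of III that overlapped replicate 2, 1375 overlapped no combined region, against 6445 of 8702 on the other chromosomes. These were 25.8% of the whole III list, against 26.2% on the other chromosomes and 26.1% of all. For replicate 2 the counts were 1247 of 1733 on III and 5825 of 7913 on the other chromosomes. These were 40.7% of the whole III list, against 36.4% on the other chromosomes and 37.1% of all. Shares of a whole list also depend on how many of its regions are shared, for replicate 2 56.5% on III and 49.5% elsewhere. The combined list took in 612 replicate 1 regions of III (11.5%, against 10.4% elsewhere and 10.6% of all) and 492 of replicate 2 (16.1%, against 13.2% elsewhere and 13.7% of all). All 100 III regions in the best 500 ranks of replicate 1 overlapped a combined region, and 93 of the 101 in the best 500 of replicate 2 did (92.1%). On the other chromosomes these were 394 of 396 (99.5%) and 372 of 399 (93.2%).

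The best replicate regions of III without a combined region, chosen after their values were seen, came early in replicate 2 and late in replicate 1. In replicate 1 the first was III:8298129-8298588 at rank 1307, and it overlapped no replicate 2 region. In replicate 2 the first was III:10216896-10217311 at rank 330, where replicate 1 had a region of rank 2179. The next in replicate 2, III:5180347-5180762 at rank 352, overlapped a replicate 1 region of rank 27646. These few regions bear on which replicate regions the combined list left out, and not on its order.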

How the data were processed

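The authors deposited lists of binding regions for the 2 ChIP replicates and 1 combined list, with positions on WormBase WS220, per the file headers. Their source field reads spp_via_IDR, where SPP is a peak caller and IDR stands for irreproducible discovery rate. The score of each region, which the authors deposited with no unit named and on a separate scale per list, served to order regions inside a list, and equal scores followed the number in the name. For the aligner, versions, thresholds and the making of the combined list, nothing is given in the sources used here. No read counts were used, so depth is unknown.

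Groups and replicate numbers came from the sample titles. Overlaps, gaps and windows were computed in Python 3.11.15 (scipy 1.17.1, numpy 2.4.6 and pandas 2.3.3), drawn in matplotlib 3.10.9 and tested on simulated data. A region belongs to the bin or window of its centre. Where a combined region overlapped several regions of a replicate, the best-ranked of them gave its replicate rank and centre. Overlapping combined regions could therefore share the same replicate region and rank. The 22 mitochondrial regions of replicate 1 were left out, and the best 2515 ranks of replicate 1 are counted without those among them. No p-values were computed, because regions are not replicates of a condition. Poisson, binomial, Wilson and order-statistic intervals cover counting error only.

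Named regions are the 20 best-ranked on III, the 5 fullest 50-kb windows with ties kept, the 5 widest gaps, the regions lacking replicate 1, and the largest rank differences. Members, lists and thresholds were chosen with earlier results of these data known. The alternatives were other overlap rules, shorter lists, single replicates, joined loci, other windows and other sets of chromosomes.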

Additional observations from a re-analysis of the deposited data

How the results depend on the processing

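The density ratio of III over the other chromosomes stayed above 1 under every alternative run, at 1.203 to 1.36 with 1 replicate list in place of the combined list and at 1.30 without chromosome V, the sparsest, which lowers it by construction. The share of III regions overlapping both replicates fell to 82.7% under a required overlap of 50% of the shorter region and to 82.1% with the combined region's centre inside a replicate region. It was 77.1% where each replicate list kept its upper 50% by score and 46.3% where each kept its best 2515 ranks, both of which shorten the lists by construction. On the other chromosomes the share was 83.3% under the overlap of 50% of the shorter region and 45.2% at the best 2515 ranks. The central share was 40.6 to 53.8% with 1 replicate list, below an even spread in replicate 1; the cause was not tested. The share in dense windows was 18.7% with the grid moved by 25 kb (14 windows), 33.3% from 4 regions, 11.6% from 6 and 16.9% in the best 2515 ranks of replicate 2, against 11.3%, 23.3%, 4.51% and 12.0% on the other chromosomes. On I alone these shares were 18.3%, 41.7%, 12.1% and 21.6%, so only with the moved grid was III above I. The median gap was 30161 bp in the upper 50% of the combined list by score, which holds fewer regions by construction. Joined loci, centre-to-centre distances and the autosomes alone moved no value beyond its interval. Except for the overlap, the best 2515 ranks of each replicate were added after seeing the data. No paired analysis was possible because regions were listed for ChIP libraries alone among the files used here. Ties at the highest score limit the order of 194 regions of III.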
